A study of Mus musculus with 18 samples.

Results

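In granulocyte-monocyte progenitors (GMPs) of wild type (WT) mice, 5778 of 35790 CHD4 sites were weaker sites (fold enrichment below 15 in the deposited peak list) that had no overlapping CHD4 peak in Gfi1-/- GMPs, no H3K4me2 peak in GMPs, and an H3K4me2 peak in both pre-neutrophils (preNeu) and mature neutrophils (matNeu). These are called gained sites here, after the change in the H3K4me2 lists. An overlap of 1 bp counted. CHD4 ChIP-seq was done in WT and Gfi1-/- GMPs, H3K4me2 ChIP-seq in WT GMP, preNeu and matNeu cells, and ATAC-seq in WT preNeu and matNeu cells, with 1 library each. RNA-seq of WT GMP, preNeu and matNeu cells had 3 libraries each. All cells came from the bone marrow of adult C57BL/6 mice of 6 to 12 weeks. The labels give the Gfi1-/- genotype without the construct of the allele or the cells that lost it. The cell type stands in the titles and in a second label, which differ for many samples, and the titles were used: Mpo and Elane (primary granule proteins) were highest in the libraries titled GMP, Ngp, Ltf and Camp (secondary granule proteins) in those titled preNeu, and Cxcr2 and Mmp8 in those titled matNeu. Nothing says which libraries share animals, so that p-values measure only the spread between these libraries.

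GFI1 is a zinc finger repressor of transcription that neutrophil development needs, and CHD4 is the ATPase of the nucleosome remodelling and deacetylase (NuRD) complex, which GFI1 can bring to DNA. H3K4me2, dimethylated lysine 4 of histone H3, marks promoters and enhancers that are active or poised. During granulopoiesis GMPs pass through a dividing preNeu stage, which makes secondary granules, to matNeu cells, which no longer divide and carry the receptors and enzymes for migration and killing of microbes.

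The membership of a site rests on lists that differ in size. The GMP list of H3K4me2 held 37643 peaks over 49.8 Mb with a median −log10 q of 2.41, the preNeu list 49578 peaks over 97.9 Mb with a median of 6.96, and the matNeu list 44094 peaks over 80.4 Mb with a median of 5.06. When the preNeu and matNeu lists were cut to their strongest peaks until they covered the length of the GMP list, 884 sites remained, and 2771 remained when their peaks had to reach a −log10 q of 5. The CHD4 list of Gfi1-/- GMPs held 7316 peaks against 35790 in WT GMPs, and 94.3% of the weaker WT sites had no counterpart in it. Absence from this list went with peak strength: 74.0% of WT sites with a fold enrichment of 15 or more had a counterpart, but 5.73% of the weaker ones. With 1 library per list, a change of the mark or of CHD4 cannot be told apart from a difference in sequencing depth or antibody yield.

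The sequences at the summits show what these sites look like. Each window is 200 bases of GRCm38 around a CHD4 summit, written on the plus strand, and capitals mark the cores searched for CEBP factors (TTGCNNAA), SPI1 (GAGGAAGT), RUNX factors (TGTGGT), AP-1 (TGANTCA) and GFI1 (AAATCA), on either strand. The first 3 are the strongest gained site of 3 of the genes with the most gained sites, and the next 2 that of the nearest genes with the largest rise in expression.
Elmo1, chr13:20140131-20140330: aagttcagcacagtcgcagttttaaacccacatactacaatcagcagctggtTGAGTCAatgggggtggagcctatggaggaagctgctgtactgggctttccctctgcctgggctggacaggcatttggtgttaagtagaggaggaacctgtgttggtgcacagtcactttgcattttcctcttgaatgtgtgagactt
Asap1, chr15:64085860-64086059: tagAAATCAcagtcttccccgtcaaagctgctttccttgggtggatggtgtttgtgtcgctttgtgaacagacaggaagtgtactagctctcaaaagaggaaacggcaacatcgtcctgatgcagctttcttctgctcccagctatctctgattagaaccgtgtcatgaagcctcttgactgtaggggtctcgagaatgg
Sipa1l1, chr12:82225756-82225955: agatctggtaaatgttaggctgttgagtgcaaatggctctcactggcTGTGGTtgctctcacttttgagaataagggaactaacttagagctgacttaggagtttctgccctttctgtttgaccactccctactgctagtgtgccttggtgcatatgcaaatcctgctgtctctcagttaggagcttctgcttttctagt
S100a9, chr3:90693595-90693794: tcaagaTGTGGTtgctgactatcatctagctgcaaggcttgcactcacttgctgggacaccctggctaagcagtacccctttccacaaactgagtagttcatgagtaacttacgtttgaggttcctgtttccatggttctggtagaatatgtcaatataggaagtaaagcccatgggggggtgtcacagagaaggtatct
Fpr1, chr17:17869561-17869760: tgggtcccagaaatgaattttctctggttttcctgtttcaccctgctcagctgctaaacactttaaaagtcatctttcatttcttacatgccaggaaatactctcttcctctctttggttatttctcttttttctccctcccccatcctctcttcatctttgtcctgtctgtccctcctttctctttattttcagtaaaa
The window of Fpr1 held none of these 5 cores, that of Elmo1 held an AP-1 core, that of Asap1 a GFI1 core, and those of Sipa1l1 and S100a9 a RUNX core each. These windows are examples, and which cores they hold does not stand for the other sites. The 4 windows below were chosen after their letters were known, to show the CEBP core: they are the gained sites with a CEBP core and an ATAC peak beside the genes with the largest rise.
Il1r2, chr1:40091270-40091469: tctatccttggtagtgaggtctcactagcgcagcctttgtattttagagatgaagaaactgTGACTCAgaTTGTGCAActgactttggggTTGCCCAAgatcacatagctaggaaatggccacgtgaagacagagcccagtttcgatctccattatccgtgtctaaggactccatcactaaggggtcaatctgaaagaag
Asprv1, chr6:86639310-86639509: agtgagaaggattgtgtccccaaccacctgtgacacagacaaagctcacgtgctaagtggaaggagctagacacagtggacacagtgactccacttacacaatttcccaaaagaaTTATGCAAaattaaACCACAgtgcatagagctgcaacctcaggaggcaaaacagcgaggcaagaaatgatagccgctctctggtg
Ccl6, chr11:83604786-83604985: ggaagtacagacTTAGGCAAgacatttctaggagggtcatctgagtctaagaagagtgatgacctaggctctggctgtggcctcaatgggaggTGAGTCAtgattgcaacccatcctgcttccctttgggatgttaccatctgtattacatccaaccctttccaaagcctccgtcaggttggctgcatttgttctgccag
Plbd1, chr6:136659353-136659552: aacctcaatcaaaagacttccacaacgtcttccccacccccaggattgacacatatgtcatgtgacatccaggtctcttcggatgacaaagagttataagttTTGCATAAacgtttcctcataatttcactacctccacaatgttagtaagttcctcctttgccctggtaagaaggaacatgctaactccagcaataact
The Il1r2 window held 2 CEBP cores and an AP-1 core, the Asprv1 window a CEBP and a RUNX core, the Ccl6 window a CEBP and an AP-1 core and the Plbd1 window 1 CEBP core.

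The sites were chosen by their CHD4 fold enrichment and by the CHD4 and H3K4me2 peak lists, so that these values only describe them. The CHD4 fold enrichment of the gained sites had a median of 6.73 in a span of 2.47 to 14.997. The median −log10 q was 11.7. The CHD4 peaks were 173 to 1215 bp wide, with a median of 294 bp. Just inside the limit were, among others, an intronic site near Ptger2 with a fold enrichment of 14.997 and a promoter site of Stxbp3 with 14.98, and sites just outside it were intergenic sites near Apon with 15.04 and near Mtf2 with 15.06. In all, 404 sites of a fold enrichment of 15 or more met the rest of the rule. Sites with no overlapping peak in the CHD4 list of Gfi1-/- GMPs are called lost here, which describes the lists only. There were 17923 weaker lost sites with no H3K4me2 in GMPs. Of these, 32.2% were gained sites, 9.88% had H3K4me2 in preNeu cells only, 2.52% in matNeu cells only, and 55.4% (9923 sites) at no stage. These 9923 sites and the 7331 weaker lost sites with H3K4me2 at all 3 stages served for comparison.

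H3K4me2 over the gained sites mostly lay in separate peaks. The 5778 sites fell in 4984 preNeu peaks and 5025 matNeu peaks, and 87.1% of these preNeu peaks held 1 site. The peaks had a median width of 2137 bp in preNeu and 1615 bp in matNeu cells, and the preNeu peak was the wider for 67.7% of sites. Their median fold enrichment was 5.45 in preNeu and 3.77 in matNeu cells, below the 8.66 and 6.12 at the sites with H3K4me2 at all 3 stages. The nearest H3K4me2 peak of GMPs lay a median of 3782 bp away. For 2421 sites (41.9%) the preNeu or matNeu peak reached over to a GMP peak, and for the other 3357 (58.1%) it touched none. At 1844 sites (31.9%) no GMP peak was within 10 kb.

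**Figure D1:**
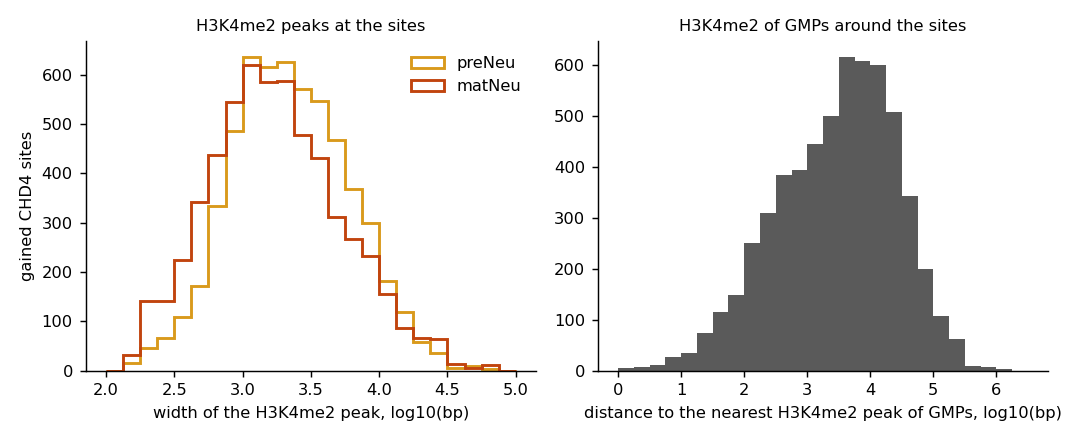
Histograms over the 5778 gained sites: left, the width of the preNeu and matNeu H3K4me2 peak at each site, right, the distance to the nearest H3K4me2 peak of GMPs, both as log10 of bp. The preNeu peaks (median 2137 bp) lie to the right of the matNeu peaks (median 1615 bp), and distances spread widely around a median of 3782 bp.

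The gained sites lay mainly in introns and between genes. By the GENCODE M21 annotation, 50.6% of their summits were in introns (95% Wilson interval 49.3 to 51.9), 33.8% were intergenic and 11.5% (662 sites) were at promoters, counted as the span between 2 kb before and 500 bp after any transcript start site (TSS). Another 1.57% were in 3′ UTRs, 1.54% in exons of noncoding transcripts and 0.865% in coding exons, and 6 sites on unplaced scaffolds had no annotation. Promoters were more frequent than among the sites without H3K4me2, where 7.86% were at promoters (difference 3.60 percentage points, Newcombe interval 2.63 to 4.59), and less frequent than the 32.3% of the sites with H3K4me2 at all 3 stages (difference −20.9 points, −22.2 to −19.5). Over all CHD4 sites of WT GMPs the share was 15.5%. The median distance to the TSS of a protein-coding gene was 16551 bp, against 25015 bp for sites without H3K4me2 and 5938 bp for sites with H3K4me2 at all 3 stages. Within 2 kb of a TSS lay 9.93% of the gained sites, at 2 to 20 kb 44.5%, at 20 to 100 kb 33.7% and farther 12.0%. All intervals of shares cover counting error within these libraries only.

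**Figure D2:**
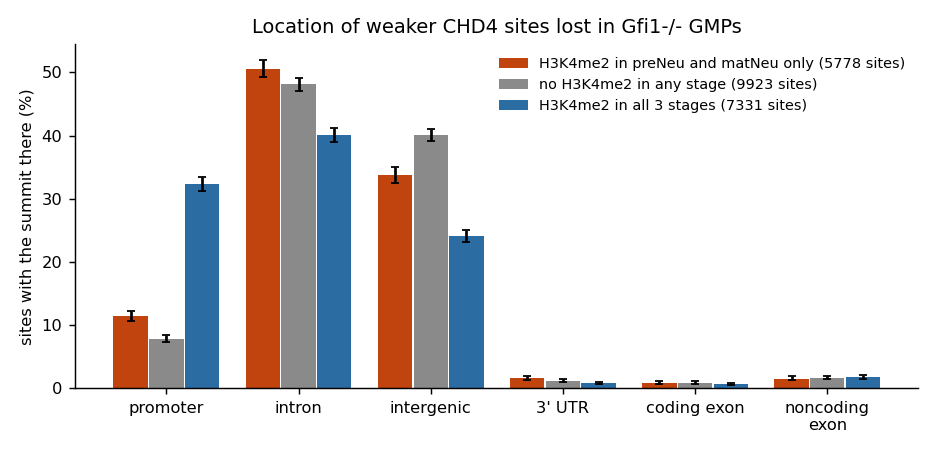
Share of summits (%) at each kind of location for the gained sites and the other weaker lost sites, with 95% Wilson intervals. Promoter summits make up 11.5% of the gained sites, between the 7.86% of sites without H3K4me2 and the 32.3% of sites with H3K4me2 at all 3 stages.

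A listed ATAC peak was found at a minority of the gained sites. The deposited ATAC-seq peak lists of preNeu and matNeu cells were the same in all 16307 peaks and were used as 1 list, so that the stages cannot be compared. The list covered 10.2 Mb with a median −log10 q of 3.47, and a site without a listed peak need not be closed. An ATAC peak overlapped 746 gained sites, or 12.9% (12.1 to 13.8), but 0.131% of the sites without H3K4me2 (difference 12.8 points, 11.9 to 13.7) and 22.7% of those with H3K4me2 at all 3 stages (difference −9.79 points, −11.1 to −8.49). Outside promoters the shares were 12.3% for the gained sites and 15.5% for sites with H3K4me2 at all 3 stages (difference −3.25 points, −4.60 to −1.90), and at promoters 17.98% and 37.8%. Sites whose H3K4me2 peak reached a GMP peak had an ATAC peak in 15.6% of cases, and those whose peak touched none in 10.99%. In 4 groups of like size from the weakest to the strongest CHD4 fold enrichment, 11.3%, 13.2%, 12.2% and 15.01% of the gained sites had an ATAC peak.

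The CEBP core was more frequent at the gained sites than at sites without H3K4me2, also at like GC content. CEBP factors, above all CEBPA and CEBPE, drive granulopoiesis, and their core stood in 20.6% of the 5772 gained windows (19.6 to 21.7), in 14.5% of the windows without H3K4me2 (difference 6.15 points, 4.90 to 7.41) and in 16.1% of those with H3K4me2 at all 3 stages (difference 4.48 points, 3.14 to 5.83). Over all CHD4 windows it was 17.3%. In windows 1000 bp away, at higher coordinates, the shares in the same order were 8.56%, 8.62% and 7.95%. Within windows of 40 to 50% GC the core was found in 21.6% of gained sites, 14.2% of sites without H3K4me2 (difference 7.39 points, 5.79 to 9.01) and 19.9% of sites with H3K4me2 at all 3 stages (difference 1.72 points, −0.198 to 3.64), so that the interval of the latter difference took in 0. Below 40% GC the shares were 28.6%, 21.1% and 24.1%, and the differences 7.54 points (3.56 to 11.7) and 4.48 points (−0.994 to 9.80). At 50% GC or more the shares were 15.5%, 9.38% and 11.8%, and the differences 6.11 points (3.94 to 8.32) and 3.74 points (1.73 to 5.84). Its share had no order by CHD4 enrichment, with 20.8%, 19.6%, 21.4% and 20.6% from the weakest to the strongest of the same 4 groups.

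The core of SPI1 (PU.1), a master factor of myeloid cells, was in 13.05% of gained windows and in 1.68% of the windows 1000 bp away. Its share was 11.9% at sites without H3K4me2 (difference 1.14 points, 0.0703 to 2.23, and 0.113 points, −1.22 to 1.49, at 40 to 50% GC) and 10.1% at sites with H3K4me2 at all 3 stages (difference 2.97 points, 1.86 to 4.08). RUNX cores stood in 25.3% of gained windows against 22.3% and 22.1% in the other groups, but at 40 to 50% GC they stood in 25.6% of gained windows and 25.7% of windows with H3K4me2 at all 3 stages (difference −0.137 points, −2.21 to 1.93). In the windows 1000 bp away the RUNX shares were 16.6% for gained sites, 14.9% without H3K4me2 (difference 1.73 points, 0.554 to 2.93) and 15.6% with it at all 3 stages. AP-1 cores stood in 10.8% against 10.98% and 8.10%. The IRF core (AANNGAAA) went the other way beside sites without H3K4me2: 29.2% of gained windows had it and 39.1% of those without H3K4me2 (difference −9.87 points, −11.4 to −8.34). With H3K4me2 at all 3 stages 29.3% had it (difference −0.10 points, −1.67 to 1.47). At 40 to 50% GC the IRF shares were 31.1%, 38.8% and 36.5%. The differences there were −7.71 points (−9.64 to −5.75) and −5.39 points (−7.63 to −3.15). The GFI1 core was in 11.1% of gained windows, 13.6% of those without H3K4me2 (difference −2.41 points, −3.46 to −1.35) and 9.71% of those with H3K4me2 at all 3 stages. It was more frequent 1000 bp away in all 3 groups, with 14.6%, 16.6% and 13.9% in the same order. The GC content of the windows 1000 bp away was not compared. At 40 to 50% GC the GFI1 core was in 12.1% of gained windows, 13.7% of those without H3K4me2 (difference −1.59 points, −2.95 to −0.203) and 12.9% of those with H3K4me2 at all 3 stages (difference −0.86 points, −2.43 to 0.705). The windows had a median GC content of 46.5%, against 45.0% without H3K4me2 and 49.5% with H3K4me2 at all 3 stages. A match is a description of these letters and not of binding.

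**Figure D3:**
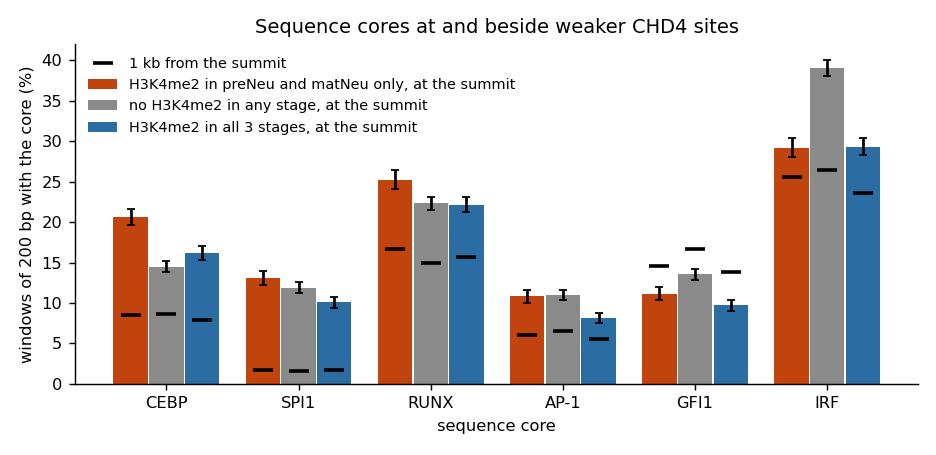
Share of 200 bp windows (%) with each sequence core at the CHD4 summit (bars, 95% Wilson intervals) and 1000 bp away (black dashes) for the 3 groups of weaker lost sites. The CEBP bar of the gained sites (20.6%) stands above those of the other groups (14.5% and 16.1%), and the IRF bar of sites without H3K4me2 (39.1%) above the others.

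Expression was read out for the protein-coding gene with the nearest TSS. Within 100 kb, 5082 gained sites (88.0%) had such a gene, 55.0% of these sites lay inside it, and the genes numbered 2737. Of them 2229 reached 1 TPM in at least 3 of the 9 libraries and were tested. Of the 2737 genes, 50.2% were also nearest to a site without H3K4me2 and 56.0% to a site with H3K4me2 at all 3 stages. In bulk samples, fewer cells of a type and less RNA per cell cannot be told apart.

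More nearest genes of gained sites were higher in matNeu cells than in GMPs than among all genes, and fewer were lower. From GMP to matNeu, 928 of the 2229 genes (41.6%) rose and 884 (39.7%) fell (limma, adjusted p under 0.05), where of all 13061 genes tested 22.8% rose and 54.1% fell. Their median log2 change was 0.07, against −0.92 over all genes. From GMP to preNeu, 29.9% rose and 32.8% fell, where all genes gave 14.7% and 44.3%, and from preNeu to matNeu 37.2% rose and 34.1% fell, where all genes gave 22.9% and 39.8%. The nearest genes of sites without H3K4me2 rose in 27.9% and fell in 51.1% of cases from GMP to matNeu, and those of sites with H3K4me2 at all 3 stages rose in 36.2% and fell in 44.6%. These groups share genes, and the differences between them were not tested. The scale matters for the direction. TPM is relative to all RNA of a library, and with median-of-ratios scaling 53.8% of the genes near gained sites rose and 29.5% fell, against 33.7% and 42.5% of all genes, whose median log2 change moved to −0.25. Without the filter on low TPM the difference was in the rises alone: 36.1% of genes near gained sites rose and 34.2% fell, against 15.6% and 35.3% of all genes.

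Over the 3 stages, the genes near gained sites followed several courses. A rise only from preNeu to matNeu was seen in 323 genes (14.5%, against 11.2% of all genes tested), and a rise at both steps in 302 genes (13.5%, against 5.30% of all genes tested). A rise in preNeu cells with no further call was seen in 142 genes (6.37%, against 3.81% of all genes tested), and one that was followed by a fall in 222 genes (9.96%, against 5.63% of all genes tested). A fall in preNeu cells and a rise after it was seen in 205 genes (9.20%, against 6.47% of all genes tested). The courses with falls alone were the rarer ones beside all genes, with 295 genes (13.2%, against 22.2% of all genes tested) at both steps, 231 genes (10.4%, against 15.6% of all genes tested) in preNeu cells alone and 242 genes (10.9%, against 12.0% of all genes tested) after it. No call at either step was made for 267 genes (12.0%, against 17.9% of all genes tested).

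The share of rising genes grew with the number of gained sites per gene. It was 35.3% of 1273 tested genes with 1 site, 43.0% with 2 sites, 55.3% with 3 or 4 sites and 60.1% of 153 genes with 5 or more sites, while falling genes dropped from 44.4% to 24.2%. The genes with more sites were also longer, with a median length of 39.9 kb for 1 site, 56.3 kb for 2, 79.3 kb for 3 or 4 and 137 kb for 5 or more, and the part of length in this order was not tested. Genes whose gained site had an ATAC peak rose in 61.9% and fell in 26.04% of 480 cases, with a median log2 change of 1.12. Genes with a gained site at their own promoter rose in 45.8% and fell in 39.0% of 336 cases. The TSS of 78.1% of the nearest genes already had an H3K4me2 peak in GMPs, and of those tested 39.96% rose and 41.7% fell. The 599 genes without it rose in 51.7% and fell in 27.4% of the 317 tested. Of the 547 tested genes that were nearest to gained sites but to neither group of comparison, 35.6% rose and 45.9% fell, with a median log2 change of −0.33. These shares lay above and below the 22.8% and 54.1% of all genes. They were close to the 36.2% and 44.6% of genes near sites with H3K4me2 at all 3 stages, whose median log2 change was −0.20.

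**Figure D4:**
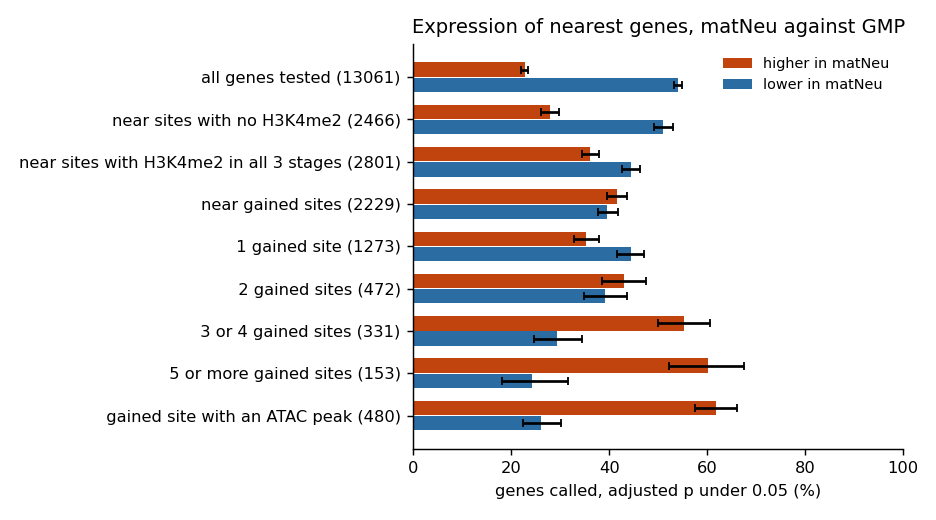
Share of tested genes (%) called higher or lower in matNeu cells than in GMPs (limma, adjusted p under 0.05), with 95% Wilson intervals over genes and the number of genes tested in brackets. Rising genes reach 60.1% with 5 or more gained sites and 61.9% where a gained site has an ATAC peak, against 22.8% of all genes.

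The genes with the most gained sites differed in their course. Etv6 (chr6:134035700-134270158, an ETS family repressor) had 19 gained sites, 16 of them in the gene, and Elmo1 (chr13:20090596-20608353, an activator of RAC signalling in migration) had 14. Etv6 stood at 54.8, 69.2 and 71.3 TPM in GMPs, 29.9, 38.2 and 36.7 TPM in preNeu cells and 30.9, 41.6 and 51.8 TPM in matNeu cells. The GMP libraries were all above the others, and the log2 change to matNeu was −0.66 ± 0.20 (SE), adjusted p = 0.0122, but median-of-ratios scaling turned it to 0.16 (adjusted p = 0.459) and upper-quartile scaling to 0.24 (adjusted p = 0.270). Elmo1 was at 181, 159.9 and 130.3 TPM in GMPs, 118, 168 and 145 TPM in preNeu cells and 132, 111 and 153 TPM in matNeu cells, with all 3 groups overlapping (log2 change −0.25 ± 0.18 (SE), adjusted p = 0.223). Asap1, a regulator of ARF GTPases with 13 sites, stood at 57.5, 100.8 and 88.1 TPM in GMPs, 64.7, 79.5 and 86.8 TPM in preNeu cells and 94.9, 80.7 and 108 TPM in matNeu cells and overlapped likewise (log2 change 0.23 ± 0.21 (SE), adjusted p = 0.346). Sipa1l1, a RAP GTPase regulator with 13 sites, was lowest in preNeu cells: it was at 19.5, 29.4 and 21.3 TPM in GMPs, 8.597, 12.98 and 9.61 TPM in preNeu cells and 23.1, 31.4 and 43.7 TPM in matNeu cells, and its log2 change was −1.10 ± 0.27 (SE), adjusted p = 0.00466, to preNeu (a call lost with upper-quartile scaling) and 1.54 ± 0.27 (SE), adjusted p = 4.36e-04, from there to matNeu.

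A rise was seen in Zfp608, Ankrd11, Igf1r, Nedd9 and Pag1. Nedd9 (chr13:41309581-41487362, a docking protein of integrin signalling, 11 sites of which 3 had an ATAC peak) was at 37.8, 23.8 and 30.2 TPM in GMPs, 84.6, 110.3 and 102 TPM in preNeu cells and 354, 394 and 350.3 TPM in matNeu cells, each stage above the one before, with a log2 change to matNeu of 3.56 ± 0.17 (SE), adjusted p = 1.34e-08. Pag1 (chr3:9687479-9833679, a membrane adaptor that recruits the kinase CSK, 11 sites) was at 7.76, 6.50 and 8.08 TPM in GMPs, 26.1, 32.5 and 26.2 TPM in preNeu cells and 113, 122 and 144 TPM in matNeu cells, with a log2 change of 3.91 ± 0.17 (SE), adjusted p = 5.95e-09. Igf1r, the receptor of insulin-like growth factor 1 (12 sites), was at 42.0, 30.0 and 46.6 TPM in GMPs, 38.6, 65.0 and 64.0 TPM in preNeu cells and 141, 127 and 176 TPM in matNeu cells. Only its matNeu libraries stood apart (log2 change 1.89 ± 0.24 (SE), adjusted p = 2.32e-05). Ankrd11, a chromatin regulator with 12 sites, changed in the same place, from 28.4 to 36.0 TPM in GMPs and 31.9 to 42.1 TPM in preNeu cells to 87.3 to 119.6 TPM in matNeu cells. Zfp608, a zinc finger gene with 15 sites, went from 4.25 to 5.14 TPM in GMPs to 12.97 to 18.4 TPM in matNeu cells. Mbnl1, a splicing regulator with 11 sites, fell instead: it was at 684, 625 and 517 TPM in GMPs, 363, 359 and 406 TPM in preNeu cells and 96.1, 82.3 and 109 TPM in matNeu cells, with no overlap between stages in TPM (log2 change to matNeu −2.65 ± 0.14 (SE), adjusted p = 2.43e-08). Its call from GMP to preNeu was lost with median-of-ratios and with upper-quartile scaling.

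**Figure D5:**
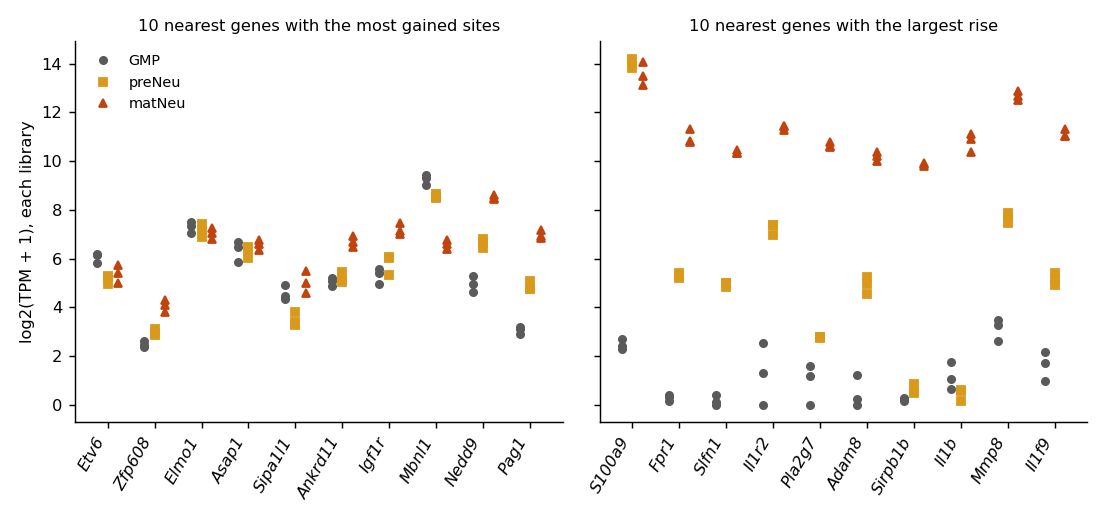
log2(TPM + 1) in each of the 9 RNA-seq libraries for the 10 nearest genes with the most gained sites (left) and the 10 with the largest rise from GMP to matNeu (right). The left genes include some whose stages overlap (Elmo1, Asap1), while Mbnl1 falls, and on the right every matNeu library stands above every GMP library, a consequence of their choice.

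The 10 nearest genes with the largest rise had 1 to 4 gained sites each. S100a9 (chr3:90692632-90695721, a subunit of calprotectin) had 1 intronic site and stood at 3.83, 5.48 and 4.27 TPM in GMPs, 18831, 14646 and 16581 TPM in preNeu cells and 17351, 11467 and 8880.4 TPM in matNeu cells. Its preNeu and matNeu libraries overlapped, and both were above all GMP libraries (log2 change to matNeu 11.11 ± 0.22 (SE), adjusted p = 8.34e-11). Fpr1 (chr17:17876471-17883940, a receptor of formyl peptides) had 1 site 14279 bp from its TSS and rose at both steps: it was at 0.233, 0.113 and 0.308 TPM in GMPs, 38.1, 41.8 and 36.2 TPM in preNeu cells and 1837, 2533 and 1766 TPM in matNeu cells (log2 change 10.70 ± 0.17 (SE), adjusted p = 1.73e-11). Slfn1, of the Schlafen family, had 3 sites and reached 1276, 1304 and 1383 TPM in matNeu cells from 0.310, 0.0751 and 0 TPM in GMPs, although reads of the Schlafen genes may be shared between near copies. The IL-1 system gave 3 of the 10. Il1r2 (chr1:40074079-40125231, the decoy receptor of IL-1) had 4 gained sites, 3 of them with an ATAC peak, and was at 1.50, 4.80 and 0 TPM in GMPs, 124, 164 and 165 TPM in preNeu cells and 2774, 2474 and 2774 TPM in matNeu cells (log2 change 10.10 ± 0.47 (SE), adjusted p = 1.06e-08). Il1b (chr2:129364570-129371139, IL-1β) had 2 sites upstream of its start and was at 0.577, 1.10 and 2.36 TPM in GMPs, 0.119, 0.526 and 0.471 TPM in preNeu cells and 1908, 1342 and 2236 TPM in matNeu cells. It rose only after the preNeu stage, with a log2 change of 10.36 ± 0.30 (SE), adjusted p = 1.24e-09, from preNeu to matNeu. Il1f9 had 1 site with an ATAC peak in a coding exon and went from 0.962 to 3.49 TPM in GMPs to 2063 to 2536 TPM in matNeu cells.

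Pla2g7 (an acetylhydrolase of platelet-activating factor, 2 sites), Adam8 (a metalloprotease, 1 site with an ATAC peak), Sirpb1b (a signal regulatory protein, 4 sites) and Mmp8 (neutrophil collagenase, 3 sites) made up the rest. Adam8 rose at both steps, from 0 to 1.32 TPM to 22.2 to 36.5 TPM and 1032 to 1339.8 TPM, and Mmp8 from 5.07 to 10.1 TPM to 174 to 234 TPM and 5831 to 7533 TPM. Sirpb1b was at 0.111, 0.218 and 0.168 TPM in GMPs, 0.407, 0.461 and 0.783 TPM in preNeu cells and 942, 902 and 976 TPM in matNeu cells, so that it was high only in matNeu cells, but its near-identical copies make the counting uncertain. With a gained site at their own promoter, Sirpb1b, S100a8, Clec4d, Gm14548 and Pirb rose most. Clec4d (chr6:123262111-123275265, a C-type lectin receptor) had 2 such sites, both with an ATAC peak, and was at 4.58, 2.39 and 3.08 TPM in GMPs, 2.61, 0.992 and 2.91 TPM in preNeu cells and 1946, 2104 and 2022 TPM in matNeu cells (log2 change 8.89 ± 0.27 (SE), adjusted p = 6.48e-10). S100a8, the partner of S100a9, was at 22.1, 44.4 and 28.9 TPM in GMPs, 29349, 24049 and 25918 TPM in preNeu cells and 32249.6, 24702 and 14320.2 TPM in matNeu cells, and its preNeu and matNeu libraries overlapped. Pirb, an inhibitory immunoglobulin-like receptor with 3 sites, went from 1.99 to 5.13 TPM to 135 to 165 TPM and 1231 to 1576 TPM, and Gm14548 from 0.225 to 2.41 TPM to 11.4 to 20.5 TPM and 515 to 644 TPM. Reads of these related receptors may be shared between copies.

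Among the genes beside the 4 CEBP windows, Plbd1 (chr6:136612070-136661928, a phospholipase-like granule protein) had 6 gained sites, 3 of them with an ATAC peak, and was at 2.41, 2.39 and 2.18 TPM in GMPs, 971, 931 and 1047 TPM in preNeu cells and 1119.5, 1223 and 1339 TPM in matNeu cells. Its rise came at the preNeu stage (log2 change 8.21 ± 0.11 (SE), adjusted p = 2.56e-11). Ccl6, a chemokine with 3 sites, was at 17.5, 14.3 and 14.2 TPM in GMPs, 8.33, 9.12 and 10.4 TPM in preNeu cells and 6637, 6572 and 5663 TPM in matNeu cells, so that it fell slightly in preNeu cells (log2 change −0.67 ± 0.14 (SE), adjusted p = 0.00169) before it rose in matNeu cells (log2 change 9.26 ± 0.14 (SE), adjusted p = 4.20e-11). Over all genes tested the median log2 change from GMP to preNeu was −0.52, and this fall of Ccl6 is not given for other scalings. Asprv1, an aspartic protease with 1 site, reached 816, 866 and 851 TPM in matNeu cells from 0, 0.655 and 0.255 TPM in GMPs.

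Gained sites also lay beside genes that fell. The 5 largest falls were Myc (a growth regulator), Srm (spermidine synthase), F13a1 (coagulation factor XIII subunit), Mcm5 (a replicative helicase subunit) and Gatm (an enzyme of creatine synthesis), with 1, 1, 3, 1 and 1 gained sites. Myc was at 386, 462 and 438 TPM in GMPs, 17.2, 26.3 and 31.4 TPM in preNeu cells and 0.0890, 0.468 and 0.349 TPM in matNeu cells (log2 change −8.37 ± 0.23 (SE), adjusted p = 3.65e-10). The GMP and preNeu libraries of Gatm overlapped and only its matNeu libraries were low: it was at 228, 282 and 246 TPM in GMPs, 247, 259 and 336 TPM in preNeu cells and 0.392, 0.331 and 0.747 TPM in matNeu cells (log2 change from preNeu −7.56 ± 0.18 (SE), adjusted p = 3.74e-10). All libraries of a later stage lay below the GMP libraries for Myc, Srm, F13a1 and Mcm5. For Mcm5 the call from GMP to preNeu was lost with median-of-ratios and upper-quartile scaling and with a pseudocount of 0.1. Of 15 progenitor genes, 6 were nearest genes of gained sites (Kit, Myb, Meis1, Erg, Myc and Cd93, with 19 sites together) and all 6 fell. Of the 9 others, all tested, 8 fell, where 54.1% of all genes tested fell from GMP to matNeu. Erg, an ETS factor of stem cells with 6 gained sites inside the gene, was at 10.3, 16.4 and 15.8 TPM in GMPs, 30.3, 31.7 and 31.2 TPM in preNeu cells and 2.93, 0.244 and 0.697 TPM in matNeu cells: it rose to preNeu (log2 change 1.11 ± 0.38 (SE), adjusted p = 0.0286, a call lost with a pseudocount of 0.1, without the filter on low TPM, without GMP replicate 1 and without each preNeu replicate) and fell to matNeu (log2 change −3.99 ± 0.38 (SE), adjusted p = 5.08e-06). Myb, a progenitor factor with 5 sites in the gene, was at 192, 188 and 212 TPM in GMPs, 42.8, 52.0 and 81.4 TPM in preNeu cells and 5.17, 7.87 and 6.41 TPM in matNeu cells, each stage below the one before. Of 10 proliferation genes, Mki67 (5 sites) and Mcm5 (1 site) were nearest genes, and both fell, as did the other 8, although Mki67 first rose to preNeu (log2 change 1.54 ± 0.18 (SE), adjusted p = 4.69e-05).

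Several receptors of mature neutrophils were nearest genes. Of 20 Fc, lectin and pattern recognition receptors, 15 were nearest genes of gained sites, with 36 sites together. Of the 15, 12 rose and 1 fell from GMP to matNeu, with a median log2 change of 4.11, where 22.8% of all genes rose, and the other 5 receptors all rose. Tlr13 (chrX:106143204-106160493, a sensor of bacterial ribosomal RNA) had 9 gained sites and was at 0.327, 0.0318 and 1.95 TPM in GMPs, 12.5, 8.12 and 10.7 TPM in preNeu cells and 346, 341 and 428 TPM in matNeu cells (log2 change 7.86 ± 0.35 (SE), adjusted p = 6.62e-09). Trem1, an activating receptor, had 2 sites at its promoter, both with an ATAC peak, and rose from 18.2 to 22.5 TPM to 70.5 to 95.7 TPM and 492 to 619 TPM. Fcgr2b, the inhibitory Fc receptor, was the one that fell, from 187 to 205 TPM in GMPs to 41.5 to 54.8 TPM in matNeu cells. Tlr1, whose matNeu libraries ranged from 40.7 to 228 TPM, and Msr1 passed no test against GMPs. Of 14 chemoattractant receptors, 6 were nearest genes and 5 of these rose (Ccr1, Ccr3, Ccrl2, Fpr1 and Fpr2). Of the 7 others tested, 5 rose and 2 fell, where 22.8% of all genes tested rose and 54.1% fell. Fpr2, like Itgax of the adhesion genes, was listed at 0 in all GMP libraries. Cxcr4, which holds neutrophils in the marrow, had 8 gained sites and was at 49.2, 58.7 and 55.7 TPM in GMPs, 38.6, 40.4 and 44.7 TPM in preNeu cells and 48.1, 43.2 and 53.3 TPM in matNeu cells. Its preNeu libraries lay below the GMP libraries (log2 change −0.39 ± 0.14 (SE), adjusted p = 0.0371), but median-of-ratios scaling gave 0.03 and upper-quartile scaling 0.09, the call was lost without GMP replicate 2 or 3 or preNeu replicate 1 or 2, and the matNeu libraries overlapped both.

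Of 12 adhesion and migration genes, 6 were nearest genes, 5 of which rose, among them Itgam, Itgb2, Itgax and Cd44, and 1 fell (Pecam1). The 6 others gave 4 rises and 1 fall, where 22.8% of all genes tested rose and 54.1% fell from GMP to matNeu. Cd44, the hyaluronan receptor, had 8 gained sites and was at 146, 134 and 129 TPM in GMPs, 222, 231 and 293 TPM in preNeu cells and 756, 754 and 937 TPM in matNeu cells (log2 change 2.57 ± 0.14 (SE), adjusted p = 2.70e-08). Itgb2, the β2 integrin, had 3 sites in the gene, 2 of them with an ATAC peak, and was at 54.7, 35.4 and 44.9 TPM in GMPs, 970.2, 1052 and 1129 TPM in preNeu cells and 1859, 1997 and 2048 TPM in matNeu cells, each stage above the one before. Of 25 genes of cytokine signalling and the inflammasome, 11 were nearest genes, of which 10 rose, with a median log2 change of 1.68, and 1, Il1r1, fell. Il1rn, the IL-1 receptor antagonist, went from 0.743 to 4.15 TPM to 38.6 to 43.8 TPM and 1054 to 1075 TPM. The 14 others of that list gave 12 rises and 2 falls.

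Of 7 primary granule genes only Ctsc was a nearest gene, with 1 site, and all 7 fell from GMP to matNeu, where 54.1% of all genes tested fell. Of 9 secondary granule genes, Ltf, Chil3 and Mmp8 were nearest genes, and all 9 rose, where 22.8% of all genes tested rose. Ltf, lactoferrin, peaked in preNeu cells: it was at 7.94, 6.23 and 4.22 TPM in GMPs, 23924, 24636 and 27604 TPM in preNeu cells and 400.2, 578 and 423 TPM in matNeu cells, and Chil3 had the same course with 41328, 37138 and 43422 TPM in preNeu cells. Of 6 tertiary granule genes, Adam8 was the only nearest gene, and all 6 rose. Cybb (chrX:9435252-9487771, the catalytic subunit of the NADPH oxidase) had 5 gained sites in the gene and peaked in preNeu cells as well: it was at 98.6, 81.5 and 61.3 TPM in GMPs, 1838, 1886 and 2171 TPM in preNeu cells and 239, 317 and 303 TPM in matNeu cells. Of 20 transcription factors of granulocyte maturation, 6 were nearest genes, of which Bcl6, Foxo3 and Lmo4 rose and Gfi1, Runx1 and Runx3 fell. Of the 14 others, 12 rose and 1 fell. Gfi1 itself (chr5:107716657-107726036) had 3 gained sites, and its mRNA was at 8.01, 5.88 and 17.5 TPM in GMPs, 20.1, 23.2 and 29.2 TPM in preNeu cells and 0, 0 and 0.145 TPM in matNeu cells. This mRNA rose to preNeu (log2 change 1.25 ± 0.35 (SE), adjusted p = 0.0108, a call lost with a pseudocount of 0.1) and was almost absent from matNeu cells (log2 change from preNeu −4.57 ± 0.35 (SE), adjusted p = 9.26e-07). For the protein the paper reports the other direction, with more GFI1 in matNeu than in preNeu cells by western blot. Bcl6, a repressor with 3 sites, went from 0.504 to 1.27 TPM to 6.81 to 11.9 TPM and 42.4 to 50.7 TPM.

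Markers of other cells moved with the stages too. The summed level of 8 monocyte and dendritic cell markers was 1308 to 1611 TPM in GMPs, 147 to 160 TPM in preNeu and 394 to 510.3 TPM in matNeu cells, and that of 6 eosinophil, basophil and mast cell markers 1111 to 1373 TPM, 96.4 to 157 TPM and 1.34 to 7.08 TPM. The 6 T and NK cell markers summed to 461 to 613 TPM, 217 to 253 TPM and 9.84 to 16.3 TPM, the 6 B cell markers to 78.9 to 94.5 TPM, 26.5 to 47.2 TPM and 62.9 to 137 TPM, and the 7 erythroid and megakaryocyte markers to 38.7 to 56.1 TPM, 12.8 to 19.6 TPM and 9.40 to 17.1 TPM. Pax5 and Ebf1 of B cells and Cd3e of T cells were at 0 in all GMP libraries. Only 2 of the 6 T and NK cell markers reached 1 TPM in at least 3 libraries, so that their sums do not stand for the whole list. Of these 33 markers, Cx3cr1, F13a1 and Klrb1c were nearest genes of gained sites. Cx3cr1 and F13a1 fell, and Klrb1c was too low to test. The part of other cells in the changes was not tested.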

How the data were processed

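The authors deposited 1 peak list per ChIP-seq or ATAC-seq library, with a fold enrichment (ratio over the local background) and a −log10 q-value for each peak, and 1 table of TPM values per gene for 9 RNA-seq libraries. Per the labels, the processing notes name FastQC 0.11.5, MultiQC 1.6, Trimmomatic 0.36, BWA 0.7.17, MACS2 2.1.0 and kallisto 0.44.0. Coordinates are GRCm38. Peak lists and TPM keep no read totals, so the sequencing depth is unknown.

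Peaks were joined by an overlap of at least 1 bp, and summits were annotated with GENCODE M21. Cores were searched in 200 bp windows on both strands. Shares have 95% Wilson and differences of shares Newcombe intervals, which cover counting error only. Expression was tested with limma 3.58.1 on log2(TPM + 1), all 9 libraries in 1 fit, for genes that reached 1 TPM in 3 libraries or more, with Benjamini-Hochberg adjustment over all 13061 genes. Log2 changes on this scale understate those of low genes. In simulated libraries 200 of 13061 genes were changed for matNeu against GMP, split evenly between 1 and 2 log2 units. Of those changed by 1 log2 unit 24 were recovered and of those changed by 2 units 75, with 5 false calls. In the data 22.8% of genes were called higher and 54.1% lower, many more than were changed here, so that these recoveries do not carry over to the real fit. Named genes were those with the most gained sites, the largest changes from GMP to matNeu, a promoter site and a large rise, or a place in the gene lists. Members and lists were chosen with earlier results of these data known. The H3K4me3 and GFI1 lists were not used here, since their chromosome names go beyond those of the mouse. The alternatives tried were other limits for CHD4 and H3K4me2 peaks, other windows, pseudocounts, filters, scalings and fits, a replicate block, and leaving out each library. Some items are not reported here.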

Additional observations from a re-analysis of the deposited data

How the results depend on the processing

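The number of gained sites rests on the H3K4me2 lists. With preNeu and matNeu peaks of a −log10 q of at least 5 it was 2771, with 14.9% at promoters and 20.8% with an ATAC peak. With lists of the same covered length it was 884, with 22.9% at promoters, 22.6% with an ATAC peak and a CEBP core in 22.7%. Of the nearest genes of these 884 sites, 46.7% were higher and 20.6% lower in preNeu cells than in GMPs, against 14.7% and 44.3% of all genes. With H3K4me2 over at least 50% of the site, 14.1% had an ATAC peak, and with no GMP peak within 1 kb 11.4% had one and 9.29% were at promoters. Promoters of 1 kb either side gave 8.90%. Windows of 100 bp gave a CEBP core in 11.8% and of 400 bp in 29.3%. With upper-quartile scaling, 21.4% of nearest genes were lower in preNeu cells than in GMPs, against 28.8% of all genes with that scaling.

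Over 19 alternatives other than leaving out a library, 34.01% to 56.1% of nearest genes rose and 27.9% to 40.6% fell from GMP to matNeu, on the same side of all genes as the values reported. The shares that fell from GMP to preNeu and from preNeu to matNeu were each on the same side in 18 of the 19, without the filter on low TPM being the exception (27.5% against 27.5%, and 28.5% against 24.0% of all genes). Without 1 library at a time, the share that rose was 39.7% to 41.6% from GMP to matNeu, 27.1% to 30.1% from GMP to preNeu and 33.8% to 37.2% from preNeu to matNeu, and the share that fell 37.9% to 39.6%, 28.5% to 33.7% and 31.6% to 34.1%. Same-numbered libraries gave correlations of −0.04 to 0.12 over 9 pairs in their deviations from the stage means, which cannot tell whether they share animals. With the replicate block the shares that rose were 41.5%, 29.7% and 37.1% and those that fell 39.5%, 32.5% and 33.6%, in the same order.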
